A study of Mus musculus with 6 samples.

Results

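Serpins, cystatins and stefins are the main families of protein inhibitors that hold proteases in check, and 52 of the 18193 genes represented on the arrays belonged to them by name. The members were the genes whose annotated symbol starts with Serpin, with Cst and a digit, or with Stfa or Csta, each represented by its brightest probe set that names a single gene. They comprised 3 stefins, 8 type 2 cystatins, 18 clade B serpins, 22 other serpins and Cstad, which matches by its letters and is not a stefin. RNA had been measured on 6 Affymetrix arrays, 1 for each of 3 FACS-sorted populations of mouse skin in each of 2 genotypes, labelled WT (wild type) and Ezh1/2 2KO (both genes knocked out). Basal epidermis holds the epidermal progenitors, matrix is the dividing part of the hair bulb, and ORS is the outer root sheath of the follicle. All mice were 14 days old and of a mixed C57B6 and CD1 background. The 2KO basal epidermis RNA came from females and that of the other 5 samples from both sexes, so that sex and genotype are partly mixed in that pair. The labels give neither the number of mice per sample nor the cells in which Ezh1 and Ezh2, the catalytic subunits of the gene-silencing Polycomb repressive complex 2, had been deleted.

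Serpins trap serine proteases, and some members trap cysteine proteases, by offering a loop that the protease cuts and cannot release; a few serpins have no inhibitory activity. Clade B serpins lack a classical secretion signal and act largely inside cells, whereas most other serpins are secreted. Stefins are small cytoplasmic inhibitors of papain-like cathepsins, and type 2 cystatins are their secreted counterparts. In the epidermis these inhibitors are known for their part in cornification, shedding and wound repair. The genes lie in tandem clusters, and close paralogs can share probes, so that the values of Stfa2l1, Stfa3, Csta1, Serpinb3a and the Serpinb6, Serpinb9 and Serpina1 genes are uncertain as values of a single gene.

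Values are MAS5 signals on a linear scale. The floor was the median signal of all probe sets, 83.4; lower signals were raised to it before a ratio was taken. Ratios of 2-fold or more, in either direction, are called higher or lower, and "at least" marks a ratio in which a signal lay below the floor. Every group has a single array, so that no difference within a population has a replicate check, a test or a p-value, and fewer cells of a type cannot be told apart from less RNA per cell. Both targeted genes were lower on each 2KO array, Ezh2 by 2.07-fold (matrix) to 5.93-fold (basal epidermis) and Ezh1 by at least 3.54-fold.

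The summed signal of 15 matrix, inner sheath and shaft genes was 76175 on the WT matrix array against 9596 and 8993 on the WT basal epidermis and WT ORS arrays. The WT basal epidermis array carried much suprabasal RNA, with a summed signal of 90517 for 12 suprabasal and cornified genes against 11708 in WT matrix and 19276 in WT ORS. On the 2KO matrix array the 12 outer root sheath genes summed to 61602 against 20070 in WT, the 11 fibroblast genes to 40495 against 21324, the 15 immune genes to 6727 against 1648 and the 10 skeletal muscle genes to 3750 against 639. The 12 suprabasal and cornified genes summed to 28227 there against 11708, and 8 basal epidermis genes to 49491 against 27559. Called higher on that array were 8 of 12 outer root sheath genes, 5 of 12 suprabasal genes, 4 of 8 basal epidermis genes, 8 of 10 measured fibroblast genes, 8 of 12 measured immune genes and 6 of 8 measured muscle genes. The lists differed on the same pair of arrays as every member called in matrix, and their part in those values was not tested.

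Of the 52 members, 26 were above the floor on at least 1 array and 12 on all 6. The other 26 were below it on every array. They included 15 serpins outside clade B, among them the liver serpins Serpina1b, Serpina1c, Serpina6, Serpina10, Serpinc1, Serpind1 and Serpinf2. Also below it were 6 of 8 type 2 cystatins (Cst7, Cst9, Cst10, Cst11, Cst12 and Cst13), Serpinb9b, Serpinb9c, Serpinb9d and Serpinb9g, and Cstad.

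**Figure D1:**
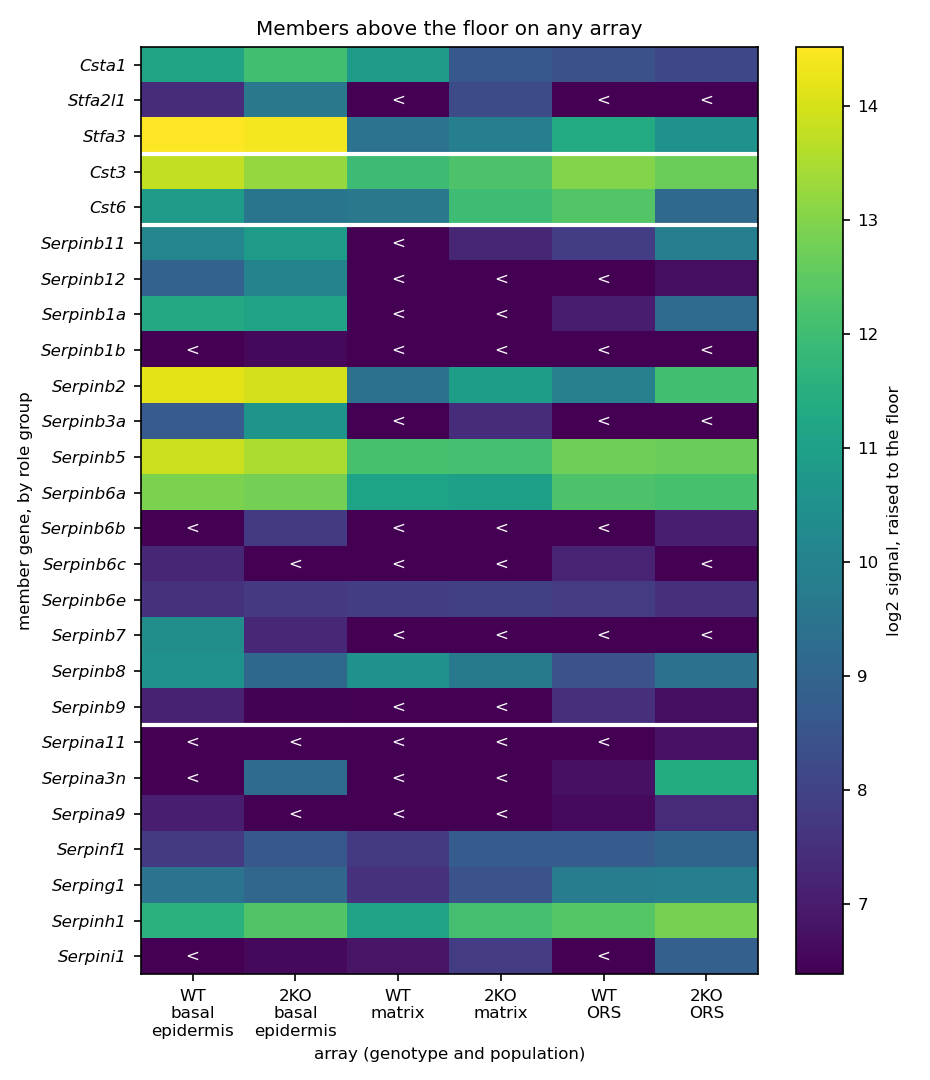
Log2 signal, raised to the floor, of the 26 members above the floor on any of the 6 arrays (columns), with members in rows by role group; < marks a signal below the floor. Stfa3 and Serpinb2 are brighter on the basal epidermis arrays of both genotypes than on any other array.

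Promoter sequences are shown for 8 members, because the stefins of chromosome 16 and the clade B serpins of chromosome 1 share a chromosome within each family and differed in their genotype ratios, and because Serpina3n had the largest ratio among the members. Each sequence holds the 250 bases before the gene's start, from RefSeq (GRCm38.p6), 5′ to 3′ on the gene's strand. Capitals mark matches on either strand to TGANTCA and to TATAAA, the letters of the TATA box. TGANTCA is looser than the AP-1 site, which has C or G at its middle base. They are Serpina3n (chr12:104406458-104406707, + strand), Csta1 (chr16:36131190-36131439, - strand), Stfa2l1 (chr16:36156561-36156810, + strand) and Stfa3 (chr16:36455393-36455642, - strand), followed by the clade B genes Serpinb11 (chr1:107362064-107362313, + strand), Serpinb7 (chr1:107422439-107422688, + strand), Serpinb2 (chr1:107511173-107511422, + strand) and Serpinb8 (chr1:107589756-107590005, + strand).
Serpina3n: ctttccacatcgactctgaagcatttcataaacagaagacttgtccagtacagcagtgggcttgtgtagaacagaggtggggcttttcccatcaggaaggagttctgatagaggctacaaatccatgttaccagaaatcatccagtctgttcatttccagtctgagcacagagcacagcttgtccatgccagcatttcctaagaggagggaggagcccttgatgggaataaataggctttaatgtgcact
Csta1: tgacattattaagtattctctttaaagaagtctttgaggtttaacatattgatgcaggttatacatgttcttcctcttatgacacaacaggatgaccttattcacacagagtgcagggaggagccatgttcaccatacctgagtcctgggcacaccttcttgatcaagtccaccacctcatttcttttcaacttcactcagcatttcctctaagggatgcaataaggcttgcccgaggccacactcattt
Stfa2l1: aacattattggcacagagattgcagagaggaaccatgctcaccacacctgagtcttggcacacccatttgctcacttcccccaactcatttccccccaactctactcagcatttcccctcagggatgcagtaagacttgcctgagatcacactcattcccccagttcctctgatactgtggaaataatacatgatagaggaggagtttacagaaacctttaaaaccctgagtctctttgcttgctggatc
Stfa3: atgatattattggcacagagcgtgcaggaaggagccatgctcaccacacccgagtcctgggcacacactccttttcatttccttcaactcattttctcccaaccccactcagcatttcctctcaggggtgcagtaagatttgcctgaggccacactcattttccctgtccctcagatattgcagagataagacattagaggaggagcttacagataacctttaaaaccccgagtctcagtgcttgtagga
Serpinb11: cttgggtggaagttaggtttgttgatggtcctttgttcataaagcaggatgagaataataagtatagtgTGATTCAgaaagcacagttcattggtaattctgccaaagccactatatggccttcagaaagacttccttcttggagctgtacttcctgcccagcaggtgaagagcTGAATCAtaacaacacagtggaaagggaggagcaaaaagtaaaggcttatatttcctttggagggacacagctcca
Serpinb7: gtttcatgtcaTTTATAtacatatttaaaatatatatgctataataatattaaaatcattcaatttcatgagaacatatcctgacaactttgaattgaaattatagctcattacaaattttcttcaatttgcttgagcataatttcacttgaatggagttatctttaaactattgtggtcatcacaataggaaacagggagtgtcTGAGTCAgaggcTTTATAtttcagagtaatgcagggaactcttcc
Serpinb2: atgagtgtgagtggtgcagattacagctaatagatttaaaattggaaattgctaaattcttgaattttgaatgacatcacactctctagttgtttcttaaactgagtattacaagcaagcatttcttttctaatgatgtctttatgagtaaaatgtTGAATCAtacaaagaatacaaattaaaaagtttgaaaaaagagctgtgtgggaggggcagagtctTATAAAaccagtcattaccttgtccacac
Serpinb8: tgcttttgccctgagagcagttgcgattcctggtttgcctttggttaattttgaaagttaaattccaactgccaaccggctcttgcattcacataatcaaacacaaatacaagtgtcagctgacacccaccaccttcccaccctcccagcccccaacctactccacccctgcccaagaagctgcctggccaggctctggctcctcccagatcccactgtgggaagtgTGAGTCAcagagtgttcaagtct

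The promoter table held 16 of the 19 members named here, and not Cst6, Serpinb1a and Serping1. TGANTCA was found before 6 of the 7 clade B genes of chromosome 1 (Serpinb2, Serpinb5, Serpinb7, Serpinb8, Serpinb11 and Serpinb12, not Serpinb3a) and before 0 of the other 9 named members. It was present in 6.75% of all 32851 promoter windows of the same length. The letters were TGAGTCA before Serpinb7 and Serpinb8. Before the other matched genes they were TGAATCA or TGATTCA, which the AP-1 site does not include. No share over all windows was computed for the AP-1 site alone. TATAAA was found before 4 of the same 7 genes (Serpinb2, Serpinb3a, Serpinb7 and Serpinb12), against 12.4% of all windows. In that order the nearest match lay 29, 65, 33 and 220 bases before the start. Where a gene had several starts the first in the table was counted. Before the other start of Serpinb12 there was no TGANTCA. The shares over all windows include every start of a gene. CpG dinucleotides numbered 0 to 6 in the 7 windows, with a median of 6 over all windows, and before the other 9 named members they numbered 20 for the clade B gene Serpinb6a, 13 for Serpini1, 11 for Serpinh1, 8 for Cst3 and 0 to 3 for the rest. The promoters of the 3 stefins resemble each other. Stfa2l1 and Stfa3 were identical at 81.3% of 252 aligned positions. The window of Csta1 is offset against theirs, and was identical at 78.6% of 159 overlapping positions with Stfa2l1 and 80.1% of 161 with Stfa3. In a separate alignment of the whole windows, with overhanging ends counted as differences, the shares were 37.4% of 342 and 38.5% of 340 positions. The shares thus depend on where the annotated starts lie. The longest run shared by Csta1 and Stfa3 was cactcagcatttcctct. These matches are descriptions of letters and not of factor binding.

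In WT skin the members were concentrated in basal epidermis. Of the 52, 9 were at least 2-fold brighter in WT basal epidermis than in both other WT populations (17.3%, against 1.98% of all genes). In WT ORS the count was 1, Cst6 (1.92%, against 2.18%), and in WT matrix 0, against 4.13%. The 9 were Stfa3, Stfa2l1 and 7 clade B serpins, Serpinb1a, Serpinb2, Serpinb3a, Serpinb5, Serpinb7, Serpinb11 and Serpinb12. The suprabasal marker list summed highest in the same population, and its part in this result was not tested.

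The same count in 2KO was 7 of 52 for basal epidermis (13.5%, against 1.67% of all genes), 1 for matrix (1.92%, against 1.69%) and 3 for ORS (5.77%, against 1.88%). Csta1 was among the 7 in 2KO and not in WT, while Serpinb5, Serpinb7 and Serpinb11 were among the 9 in WT and not in 2KO. Cst6 was the 1 member richest in 2KO matrix. Serpina3n, Serpina9 and Serpini1 were richest in 2KO ORS. After scaling to a common median the 2KO basal epidermis count was 12, and the 2KO ORS count was 1 under that scaling and with the floor at the 75th percentile.

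Between genotypes the members went both ways. In basal epidermis 5 of 52 were at least 2-fold higher in 2KO (9.62%, against 4.18% of all genes) and 3 lower (5.77%, against 2.59%). In matrix 6 were higher (11.5%, against 5.78%) and 1 lower (1.92%, against 1.04%), and in ORS 5 were higher (9.62%, against 5.38%) and 1 lower (1.92%, against 3.13%). No member was called the same way in all 3 populations, where 1.17% of genes were higher and 0.104% lower. Without the matrix arrays, Serpina3n was higher and Cst6 lower in both remaining populations. A member counts as measured when it is above the floor in either genotype, and 25, 16 and 22 members were measured in basal epidermis, matrix and ORS. Their median log2 ratios were -0.08, 0.91 and 0.28, beside 0.04, 0.03 and 0.01 over all measured genes. Among the 19, 13 and 17 members above the floor in both genotypes the medians were -0.10, 0.40 and 0.08.

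The matrix counts depended on the scaling. The 6 higher members became 3 when arrays were brought to the same median signal, with a median log2 ratio of all measured genes in matrix of -0.24, and 2 when they were scaled on the hybridisation controls, with one of -0.64. Lowering the floor to the 25th percentile raised the counts of higher members to 8, 14 and 12 in basal epidermis, matrix and ORS.

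**Figure D2:**
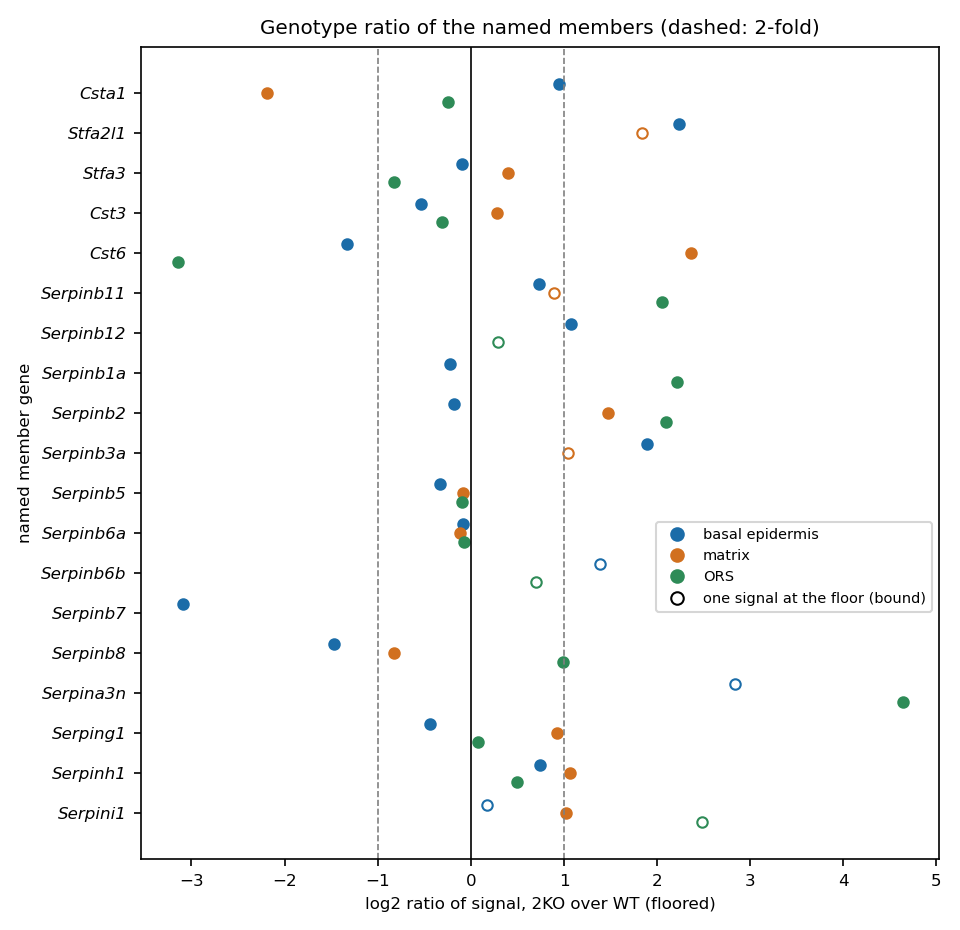
Log2 ratio of signal, 2KO over WT, for the 19 named members (rows) in basal epidermis, matrix and ORS (colours); open circles are ratios with a signal at the floor, and pairs below the floor in both genotypes are not drawn. Serpina3n in ORS lies farthest to the right, and Cst6 and Serpinb7 farthest to the left.

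The 3 stefins differed from each other by population and genotype. Csta1, the stefin A gene, read 2225 (WT) and 4285 (2KO) in basal epidermis, 1814 and 398 in matrix, and 337 and 285 in ORS. Thus WT matrix was close to WT basal epidermis, 1.23-fold apart, and 2KO matrix was close to the ORS arrays. In 2KO the gene was 4.56-fold lower in matrix, with differences of 1.93-fold upwards in basal epidermis and 1.18-fold downwards in ORS. The matrix log2 ratio was -2.19, and -2.88 when scaled on the hybridisation controls. The matrix, sheath and shaft marker list had 4 of 15 genes lower and 2 higher in 2KO matrix (Krt73 by 3.66-fold and Shh by 2.86-fold), and a sum of 64632 against 76175, while 8 of 12 outer root sheath genes were higher. The part of either list in the Csta1 value was not tested.

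Stfa2l1, another stefin gene of chromosome 16, read 169 (WT) and 792 (2KO) in basal epidermis, 42.3 and 299.6 in matrix, and 49.9 and 57.4 in ORS. It was at least 3.59-fold higher in matrix and 4.68-fold higher in basal epidermis, and was below the floor on both ORS arrays. Its log2 ratio in basal epidermis was 0.76 when the floor was set at the 75th percentile. Stfa3, the third stefin, read 23416 (WT) and 21842 (2KO) in basal epidermis, 721 and 955 in matrix, and 2637 and 1490 in ORS. Its genotype ratios were within 2-fold in every population as deposited, but in ORS the log2 ratio of -0.82 became -1.08 with a common median and -1.02 with the hybridisation controls, which calls it lower. In matrix the log2 ratio of 0.40 turned to -0.29 with the hybridisation controls. By population, its WT signal was 32.5-fold higher in basal epidermis than in matrix and 8.88-fold higher than in ORS.

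Stefins of this cluster are also known from mouse neutrophils. Of 14 neutrophil markers, 9 were below the floor on all 6 arrays, among them Elane, Mpo, Camp, Ngp and Ltf. S100a8 and S100a9, which keratinocytes under stress also express, were 2.78-fold and 2.75-fold higher in 2KO basal epidermis and 11.1-fold and at least 33.3-fold higher in 2KO matrix. Csf3r was at least 2.97-fold higher in 2KO matrix. The list summed to 6874 in WT and 14750 in 2KO epidermis, to 559 and 6414 in the matrix pair and to 9268 and 4407 in the ORS pair. Most of these sums came from S100a8, S100a9 and Lcn2, a lipocalin gene that keratinocytes also express. Lcn2 alone read 8296 in WT and 3099 in 2KO ORS, 2.68-fold lower, and it was 3.99-fold higher in 2KO matrix.

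Among type 2 cystatins, Cst6 had opposite genotype ratios in the follicle's 2 populations. Cst6 encodes cystatin M/E, an inhibitor of legumain and cathepsin L that is needed for cornification. It read 1863 (WT) and 741 (2KO) in basal epidermis, 797 and 4097 in matrix, and 5190 and 583 in ORS. The highest WT signal was thus in ORS and the highest 2KO signal in matrix. In 2KO the gene was 5.14-fold higher in matrix, and 2.51-fold (basal epidermis) and 8.90-fold (ORS) lower elsewhere; the direction was the same under each alternative run, with a matrix log2 ratio of 1.67 on the hybridisation controls. Some markers of other cells went the same way as Cst6 in matrix, in ORS or in both. In 2KO matrix 8 of 12 outer root sheath genes were higher, among them Krt79, a keratin of the upper follicle, by 18.1-fold. In 2KO ORS Krt79 was 3.28-fold lower, the only 1 of those 12 genes called lower, while 3 were higher. There 3 of 4 sebocyte genes were lower, Elovl3 by 9.37-fold and Scd1 by 3.88-fold, both lipid synthesis genes, and Mc5r by at least 2.47-fold. The sebocyte list summed to 58714 in WT and 35819 in 2KO ORS. In 2KO matrix, where Cst6 was higher, 0 of 3 measured sebocyte genes were higher and 1 was lower, Elovl3 by 2.30-fold. The part of these lists in the Cst6 values was not tested. Cst3, the widely expressed cystatin C gene, read 13822 and 9587 in basal epidermis, 3992 and 4843 in matrix, and 8234 and 6643 in ORS. All its genotype ratios were within 1.44-fold, and the matrix log2 ratio of 0.28 turned to -0.41 on the hybridisation controls.

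Cornification genes did not share one pattern with Cst6. Of the 12 suprabasal and cornified genes, 1 was called higher in 2KO matrix and lower in 2KO ORS. That gene, Calm4, a calmodulin-like gene of the upper epidermis, was 4.54-fold higher and 7.58-fold lower. Krtdap, a gene of differentiating keratinocytes, was higher in both (9.31-fold and 2.07-fold), and Flg, which encodes filaggrin, was lower in both (at least 2.62-fold and at least 2.15-fold). Klk7, a desquamation protease from the list of serine proteases, was 3.60-fold higher in matrix and 12.3-fold lower in ORS. In 2KO basal epidermis Klk7 was 6.38-fold lower and Calm4 1.27-fold lower. Over the 12 genes, 3, 5 and 2 were higher and 2, 1 and 2 lower in basal epidermis, matrix and ORS. The part of this list in the Cst6 values was not tested.

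**Figure D3:**
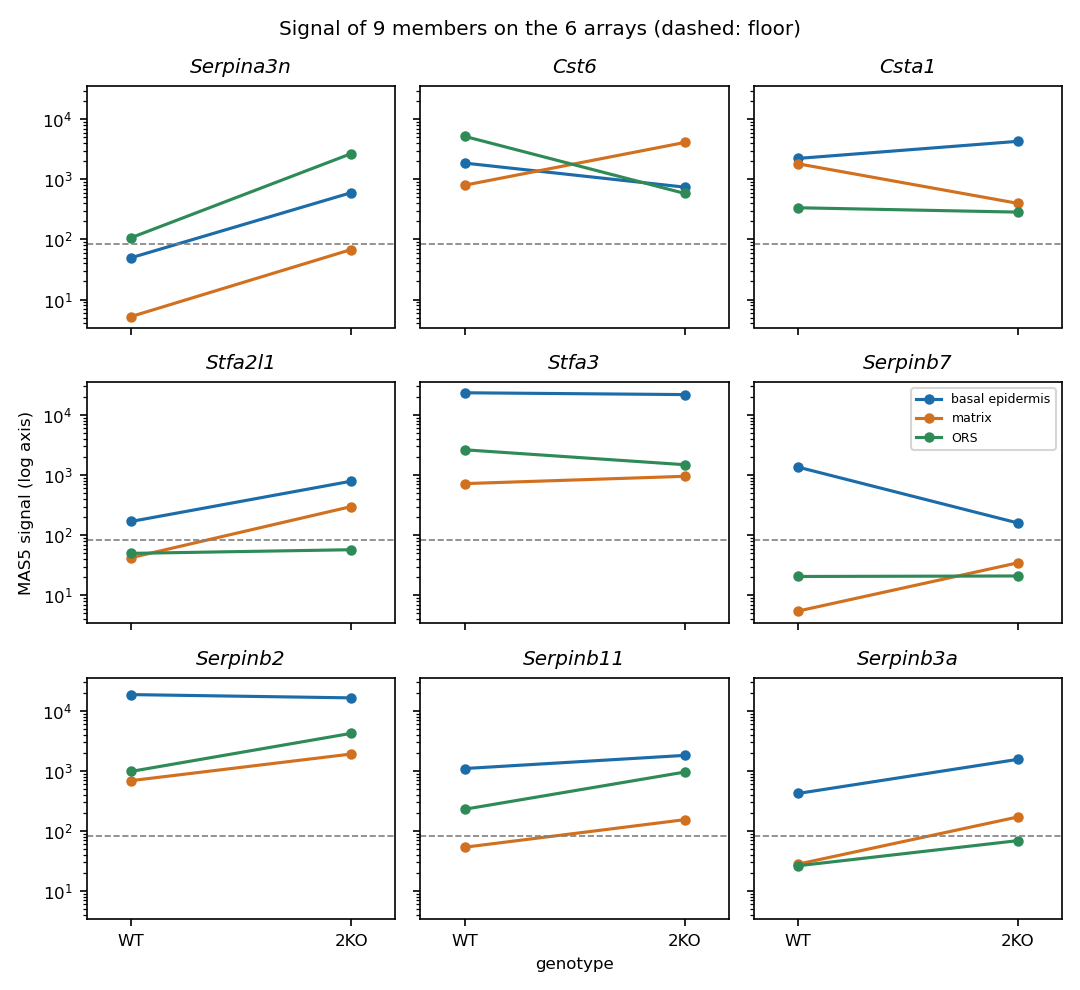
MAS5 signal (log axis) of 9 members on the WT and 2KO arrays; each line joins the 2 arrays of a population, and the dashed line is the floor. Cst6 goes from 797 to 4097 in matrix and from 5190 to 583 in ORS, and Serpina3n from 107 to 2674 in ORS.

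Clade B serpins were the largest measured group. Of 18, 14 were measured in basal epidermis, where 3 were higher and 2 lower in 2KO, beside 760 and 471 of 11525 measured genes. In matrix 2 of 7 measured were higher, beside 1052 of 11651 genes, and in ORS 3 of 11, beside 979 of 11984, with 0 members lower in either. Serpins outside clade B had 2 higher of 4 measured in matrix and 2 of 7 in ORS, beside the same gene counts. Serpinb2, plasminogen activator inhibitor 2, read 18584 (WT) and 16395 (2KO) in basal epidermis, 688 and 1908 in matrix, and 980 and 4213 in ORS. It was 2.77-fold higher in matrix and 4.30-fold higher in ORS, on arrays where its WT signal had been 27.0-fold and 19.0-fold below that of basal epidermis. The matrix log2 ratio was 0.78 after scaling to the hybridisation controls. In 2KO matrix 4 of 8 basal epidermis genes and 5 of 12 suprabasal genes were also higher, and 1 suprabasal gene was lower. The higher ones included the keratin genes Krt5 (2.10-fold) and Krt14 (2.87-fold), Krtdap (9.31-fold) and the cornified envelope gene Sprr1b (6.25-fold). In 2KO ORS 0 of the 8 were called, and of the 12, 2 were higher and 2 lower. The part of these markers in the Serpinb2 values was not tested.

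Serpinb11, a poorly understood member that precedes Serpinb7 in gene order, read 1094 (WT) and 1811 (2KO) in basal epidermis, 53.7 and 154 in matrix, and 230.0 and 956 in ORS. The ORS difference was 4.16-fold, and those in basal epidermis and matrix were 1.66-fold and at least 1.85-fold. The ORS log2 ratio of 2.05 was 1.03 with the floor at the 75th percentile, and the matrix one was 1.52 with the floor at the 25th percentile and 1.29 with a pseudocount of 16. Serpinb1a, an inhibitor of neutrophil serine proteases, read 2505 and 2146 in basal epidermis, 25.7 and 55.5 in matrix, and 131 and 604 in ORS. It was 4.62-fold higher in 2KO ORS, and its other probe set was at least 1.96-fold higher there. Both matrix signals of Serpinb1a were below the floor, and with the floor at the 75th percentile its ORS log2 ratio was 0.37.

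Serpinb3a, a homologue of the squamous cell carcinoma antigens, read 421 (WT) and 1557 (2KO) in basal epidermis, 28.1 and 172 in matrix, and 26.4 and 69.2 in ORS. It was at least 2.06-fold higher in matrix and 3.70-fold higher in basal epidermis, and the matrix log2 ratio was between 0.78 and 0.94 under the 3 other scalings. Serpinb12, a clade B serpin of surface epithelia, read 487 and 1027 in basal epidermis and at most 102 elsewhere. It was 2.11-fold higher in 2KO basal epidermis, with a log2 ratio of 0.96 after scaling to a common median, and its fainter probe set was at least 1.16-fold higher. In ORS its log2 ratio of at least 0.29 was 1.39 with the floor at the 25th percentile and 1.10 with a pseudocount of 16. Serpinb6b read 68.9 and 218 in basal epidermis, at least 2.61-fold higher in 2KO.

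Serpinb7 and Serpinb8 were the clade B members called lower in 2KO basal epidermis. Serpinb7, an epidermal inhibitor whose loss in people causes Nagashima-type palmoplantar keratosis, read 1360 (WT) and 159.7 (2KO) in basal epidermis. All 4 signals in matrix and ORS were between 5.47 and 34.8, below the floor. The basal epidermis difference was 8.52-fold, and the call held under each alternative run at the 2-fold threshold, with a log2 ratio of -3.09 as deposited and -1.54 with the floor at the 75th percentile. Serpinb8, known to inhibit furin, read 1508 and 546 in basal epidermis, 1438 and 812 in matrix, and 352 and 701 in ORS. It was 2.76-fold lower in 2KO basal epidermis, 1.77-fold lower in matrix and 1.99-fold higher in ORS, just inside the 2-fold threshold, and its other probe set gave 2.25-fold and 1.49-fold lower and 2.17-fold higher. The matrix log2 ratio of -0.82 became -1.10 with a common median and -1.52 with the hybridisation controls, and the mean of its probe sets put the ORS one at 1.06.

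The bright, broadly expressed clade B members showed little difference by genotype. Serpinb5, known as maspin, read 14750 (WT) and 11773 (2KO) in basal epidermis, 4571 and 4326 in matrix, and 6803 and 6414 in ORS. Its ratios were within 1.25-fold, and the log2 ratios of its 4 probe sets lay between -0.58 and 0.16 over the 3 populations. Serpinb6a read 7644 and 7246, 2171 and 2004, and 4801 and 4561 in the same order, all within 1.08-fold. On the hybridisation controls, which shifted all genes in matrix, their matrix log2 ratios were -0.77 (Serpinb5) and -0.81 (Serpinb6a). Serpinb6e, Serpinb9, Serpinb6c and Serpinb1b had signals between 3.39 and 243 and no call.

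The 7 clade B members of chromosome 1 follow each other in the order Serpinb5, Serpinb12, Serpinb3a, Serpinb11, Serpinb7, Serpinb2 and Serpinb8, and other serpin genes between them were not analysed here. In WT all 7 were brighter in basal epidermis than in ORS, from 2.17-fold for Serpinb5 and 4.28-fold for Serpinb8 to at least 16.3-fold for Serpinb7 and 19.0-fold for Serpinb2. In 2KO the floored ratio was larger for Serpinb12 and Serpinb3a, at 10.1-fold and at least 18.7-fold against at least 5.84-fold and at least 5.05-fold in WT, bounds that leave the order of the true ratios unknown. It was smaller for Serpinb11 (1.90-fold against 4.76-fold), Serpinb7 (at least 1.91-fold, again a bound on both sides), Serpinb2 (3.89-fold) and Serpinb5 (1.84-fold). Serpinb8 turned, and was 1.29-fold brighter in 2KO ORS than in 2KO basal epidermis. Members next to each other in this order had genotype ratios of either sign within basal epidermis.

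**Figure D4:**
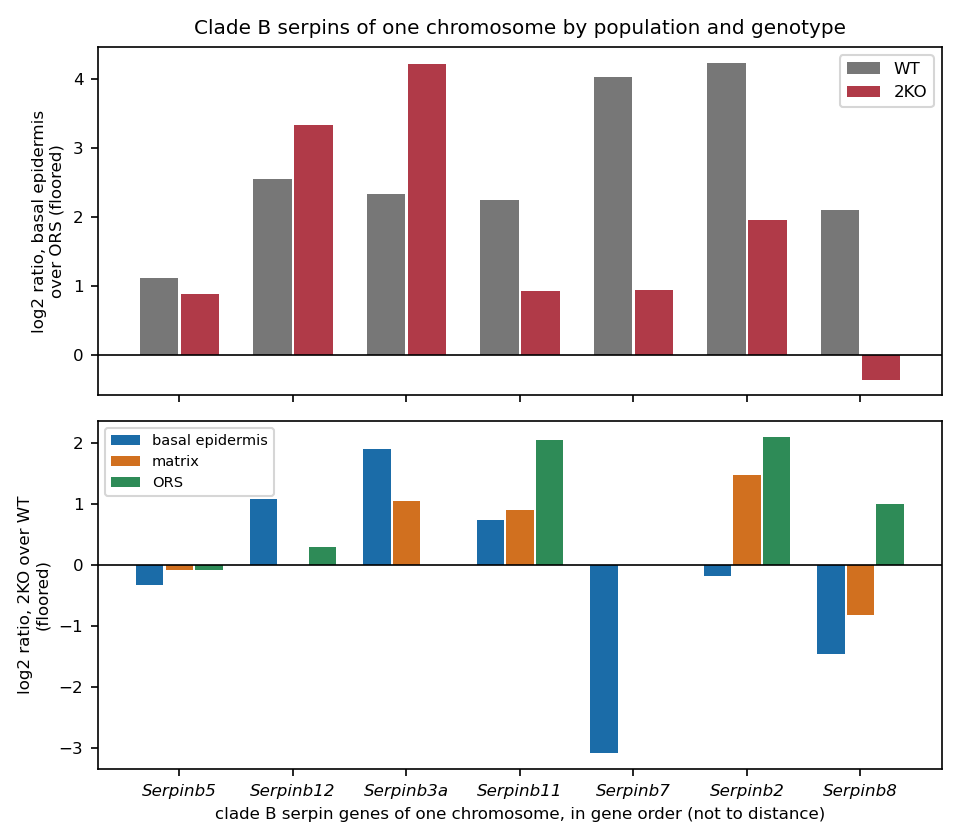
Upper bars give the log2 ratio of basal epidermis over ORS in WT and 2KO, and lower bars the log2 ratio of 2KO over WT in each population, for the 7 clade B serpins of chromosome 1 in gene order; pairs below the floor on both arrays have no bar. Serpinb3a is higher and Serpinb7 lower in 2KO basal epidermis, and the basal over ORS ratio of Serpinb8 changes sign.

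Serpina3n, a secreted acute-phase inhibitor related to human alpha-1-antichymotrypsin, had the largest genotype ratio of the members. It read 49.6 (WT) and 599 (2KO) in basal epidermis, 5.22 and 67.9 in matrix, and 107 and 2674 in ORS. The 2KO signals of basal epidermis and ORS exceeded all 3 WT signals, and both matrix signals were below the floor. In ORS the gene was 25-fold higher, and in basal epidermis at least 7.18-fold. The WT signal in ORS lay close above the floor. With the floor at the 75th percentile the ORS log2 ratio went from 4.64 to 2.52 and the basal epidermis one from 2.84 to 0.36. Its relatives Serpina3a and Serpina3i on chromosome 12 were below the floor on all arrays.

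Serpini1 and Serpinh1 were the other serpins outside clade B called higher in 2KO. Serpini1, neuroserpin, the inhibitor of tissue plasminogen activator in the nervous system, read 31.4 and 93.8 in basal epidermis, 112 and 228 in matrix, and 71.3 and 467 in ORS. It was 2.03-fold higher in matrix and at least 5.59-fold higher in ORS, where another of its probe sets was at least 2.57-fold higher. The mean over its 3 probe sets gave a log2 ratio of 0.03 in ORS, the floor at the 75th percentile gave 0.00, and 4 alternatives put the matrix log2 ratio between 0.33 and 0.93. In basal epidermis the log2 ratio was at least 0.17, with 1.58 for the floor at the 25th percentile and 1.21 for a pseudocount of 16.

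Serpinh1, the collagen chaperone HSP47, which is not a protease inhibitor, read 3021 and 5029 in basal epidermis, 2132 and 4484 in matrix, and 5266 and 7445 in ORS. It was 1.41-fold higher in ORS, 1.66-fold in basal epidermis and 2.10-fold in matrix, and its other probe set gave 1.67-fold, 1.71-fold and 2.41-fold. The matrix log2 ratio was 0.79 and 0.38 with the common median and the hybridisation controls as scalings. Fibroblast markers were higher in 8 of 10 measured cases in 2KO matrix, and their part in the Serpinh1 value was not tested. Serping1, the complement C1 inhibitor, read 718 and 530.4 in basal epidermis, 186 and 354 in matrix, and 900.5 and 955 in ORS, with no call. Serpinf1, pigment epithelium-derived factor, read between 215 and 512 and was 1.99-fold higher in 2KO matrix, and its 2 probe sets had opposite signs in ORS. Serpina9 and Serpina11 had signals up to 168 and no call.

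Genes of the proteases that several of these inhibitors act on, and genes listed with them, differed unevenly by genotype. Of 10 genes of plasminogen activation, 2, 4 and 4 were higher and 1, 0 and 0 lower in 2KO basal epidermis, matrix and ORS. These counts take in Plaur, Plgrkt, Vtn, Lrp1 and Thbd, which do not encode proteases. For this list and those below, the shares over all genes in that order were 4.18%, 5.78% and 5.38% higher. Those lower were 2.59%, 1.04% and 3.13%. Plau, which encodes urokinase, a target of Serpinb2, read 246 and 609.9 in basal epidermis, 369 and 1522 in matrix, and 75.4 and 736 in ORS. It was 2.48-fold, 4.12-fold and at least 8.82-fold higher. Its receptor gene Plaur was 2.79-fold, 2.77-fold and 4.58-fold higher, and Plat, tissue plasminogen activator, 1.30-fold, 4.79-fold and 3.54-fold. Mmp2, which encodes a gelatinase of the metalloproteinase class, was 3.25-fold lower in basal epidermis.

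Of 14 genes of a cathepsin list that includes legumain, 1, 2 and 0 were higher and 2, 0 and 2 lower in basal epidermis, matrix and ORS; the list holds the serine protease Ctsa and the aspartic proteases Ctsd and Ctse, which cystatins do not inhibit. Ctsh was 4.71-fold and Ctss, a protease of antigen presenting cells, 2.55-fold higher in 2KO matrix, where 8 of 12 measured immune markers were higher. Their part in these values was not tested. Ctsz was 2.12-fold higher and Ctso 3.03-fold lower in 2KO basal epidermis. Ctsl and Lgmn, both targets of Cst6, were within 1.57-fold in all 3 populations.

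Of 25 genes listed as serine proteases of epidermis and leukocytes, 2, 4 and 2 were higher and 3, 0 and 3 lower. The lower ones were Klk5, Klk7 and the membrane protease Tmprss4 (3.33-fold) in basal epidermis, and Klk5 (3.90-fold), Klk7 and Klk8 (2.67-fold) in ORS. Klk8, which was 2.06-fold higher in basal epidermis and at least 2.47-fold higher in matrix, thus went the other way in ORS. F3, the tissue factor gene, was 3.03-fold higher in ORS. It is counted in the list but encodes a cofactor and not a protease.

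Of 23 protease inhibitors outside the naming rule, 16, 16 and 15 were measured in basal epidermis, matrix and ORS. Of these, 7, 5 and 6 were higher and 0 lower in any population. Wfdc2, a WAP-domain gene, was 11.8-fold (basal epidermis), at least 2.36-fold (matrix) and at least 5.99-fold (ORS) higher, Tfpi2, an inhibitor of the tissue factor pathway family, at least 2.86-, 3.48- and 8.84-fold in that order, and Timp1, an inhibitor of matrix metalloproteinases, 2.96-fold, 2.76-fold and 3.95-fold. Slpi, an inhibitor of leukocyte elastase, was 3.01-fold higher in ORS and 7.46-fold in basal epidermis. Cstb, the stefin B gene, which the naming rule does not take in, was within 1.31-fold.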

How the data were processed

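RNA of 6 FACS-sorted samples was measured on 6 Affymetrix arrays. Per the submitters' processing notes the deposited intensities are MAS5 signals (linear, a value per probe set); the MAS5 version was not given in the sources used here. A 2% trimmed mean of 500.0 in every column shows a common scaling before deposit, which hides a shift of most genes one way. The table holds 45101 probe sets. The median signal was 72.6 to 99.0 per array, and 47.7% to 53.1% of probe sets lay above the floor. Arrays have no read depth, and their number limits the precision.

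Probe sets were named from the platform annotation. All 52 members matched the RefSeq gene table (GRCm38.p6) by gene ID. Of 73 probe sets with a symbol that fits the naming rule, 5 name several genes and were left out; 12 members had several probe sets. Signals were used without further scaling, raised to the floor, and compared as ratios (Python 3.11.15, numpy 2.4.6, pandas 2.3.3). The calling was run on simulated arrays with an assumed noise and changes larger than the threshold, in genes well above the floor. Calls near the threshold or the floor were not covered by it. Percentages of genes called are over all 18193 genes.

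Members named in the text were those 2-fold different between genotypes, 4-fold different between WT populations, or among the 8 brightest, plus Serpina3n and Csta1; other members are named to account for all. Up to 8 genes per list could be named. The members, the lists and the rules were chosen with earlier results of these data known. Alternatives were 3 scalings, 3 floors, 2 choices of probe set and a 3-fold threshold. After the data were seen, the counts of members richest in a 2KO population and the counts without the matrix arrays were added.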

Additional observations from a re-analysis of the deposited data

Results flagged for a closer look

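Cst6 was flagged because its genotype ratios pointed in opposite directions in different populations, with a log2 ratio of 2KO over WT of -1.33 in basal epidermis and -3.15 in ORS against 2.36 in matrix. The difference between populations was not tested, since each ratio rests on 1 array per group.

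The probe set that names both Stfa1 and Cstdc5 was left out of the comparisons because it names several genes. It read 25666 and 27552 in WT and 2KO basal epidermis, 712 and 2090 in matrix, and 3671 and 4732 in ORS. It was flagged for its signal in 2KO matrix, where the log2 ratio was 1.55.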

How the results depend on the processing

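Of 21 genotype calls of named members, 12 were kept under all 8 alternatives of scaling, floor and probe set that gave a value, and 0 reversed. Counts of members moved with the settings, and the cause was not tested beyond what each setting does. With a floor at the 25th percentile 8 members were higher and 6 lower in 2KO basal epidermis, 14 higher in matrix, 12 higher and 4 lower in ORS, and 4 higher in all 3 populations; 3 were richest in WT ORS, 2 in 2KO matrix and 6 in 2KO ORS. With no floor and a pseudocount of 16 the counts were 9 and 7 in basal epidermis, 13 higher in matrix, 12 and 3 in ORS, and 2 higher in all 3, with 1 richest in WT matrix, 3 in WT ORS and 2 in 2KO matrix. Raising the floor to the 75th percentile left 2, 3 and 3 higher members in the populations in that order, and 1 was richest in 2KO ORS.

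Scaling to a common median gave 3 higher and 2 lower in matrix, 3 lower in ORS, 12 richest in 2KO basal epidermis and 1 in 2KO ORS. Scaling to the hybridisation controls gave 2 higher and 2 lower in matrix and 3 lower in ORS, and quantile normalization 2 lower in ORS. The mean of all probe sets gave 2 members richest in WT ORS. At 3-fold, 3 were higher and 1 lower in basal epidermis and 2 higher in matrix, with 0 richest in WT ORS and 1 in 2KO ORS. Without the matrix arrays 1 member was higher and 1 lower in both remaining populations. Leaving out probe sets whose names end in _x_at, _s_at or _a_at, which removed 9 members, moved no count past 1.5 times. A fit of genotype over the 3 population pairs, which would use the populations as replicates, was not run. Signals near the floor limit what can be said of 26 of the members.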

Other observations

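Some members had faint signals that were below the floor in a pair and so gave no ratio. Serpina3n read 5.22 in WT and 67.9 in 2KO matrix, and Serpinb7 5.47 and 34.8 on the same arrays. Serpinb12 read 28.1 and 68.6, and Serpinb6b 26.5 and 72.8. In ORS, Serpinb3a read 26.4 and 69.2. With signals of this size neither a level nor a difference was established.

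Of the 8 mast cell and basophil markers, 3 of the 5 measured in matrix were higher in 2KO, 1 of the 5 measured in basal epidermis and 0 of 2 in ORS. Kit was within 1.07-fold in matrix, and Tpsb2, Fcer1a and Ms4a2 were below the floor on all arrays. Cpa3, mast cell carboxypeptidase, read 98.6 and 367 in WT and 2KO basal epidermis and 57.7 and 299 in matrix, and Hdc, histidine decarboxylase, 19.5 and 366 in matrix.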
